A study of Saccharomyces cerevisiae with 12 samples.

Results

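The transcript profile of Saccharomyces cerevisiae S288c overexpressing MSS11 was compared with that of the S288c wild type. The comparison used 2 of the 12 Affymetrix arrays of the series, 1 array for each S288c group, and all 5498 probe sets assigned to S. cerevisiae (5449 genes) of the 10928 on the array. The overexpression strain was BY4742, the MATα haploid form of S288c with deletions in HIS3, LEU2, LYS2 and URA3, carrying MSS11 on the multicopy URA3 plasmid YEplac195. The wild type was BY4742 with the same plasmid lacking an insert. Both groups also carry flo8-1, the nonsense allele of FLO8 found in S288c, so neither makes full-length Flo8. Cultures of 5 ml were grown at 30 °C with 2% glucose. The labels place the harvest in early stationary phase, whereas the study's text speaks of mid-exponential growth.

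Because each S288c group had 1 array, the difference between them has no replicate check, and sizes are described without a test. The spread came from Σ1278b, another laboratory strain: 3 arrays of a strain overexpressing FLO11 and 3 arrays of its wild type. These 6 arrays give 6 pairs of replicates. The largest difference that a probe set showed within any of these pairs is called its replicate range below, and it covers neither S288c cultures nor the array set that the S288c arrays belong to. The same contrast of MSS11 overexpression against wild type was measured once in Σ1278b, which has an intact FLO8, with 1 array each. The remaining Σ1278b arrays used here, 1 each, are of a strain with FLO8 on the multicopy plasmid and of a strain labelled mss11 deleted, set against that same wild type. The labels give the Σ1278b strain as MATα with ura3, trp1, leu2 and his3 mutations, whereas the study's strain table gives it as MATa. The study describes replicate cultures for every strain, and the S288c arrays analysed here are labelled as the first biological replicate of each group.

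Mss11 is a transcription factor that acts with Flo8 at the promoter of FLO11, the gene of a cell wall glycoprotein needed for invasive growth, mat formation and attachment to surfaces. Related flocculin genes, FLO1, FLO5, FLO9 and FLO10, encode lectin-like wall proteins that bind mannose chains on neighbouring cells and let cells clump. In S288c the flocculins are largely silent, a trait traced to the flo8-1 allele. TIR and DAN genes encode mannoproteins of the wall, best known for their expression under cold or low oxygen.

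Signals are the RMA summary of each probe set on the log2 scale. A probe set was called higher or lower at an absolute log2 difference of at least 1, which is 2-fold, if the brighter array lay above its background, taken as the 95th percentile of 1746 probe sets for the fission yeast Schizosaccharomyces pombe. Background stood at 4.80 on the MSS11 array and at 4.76 on the wild-type array, with 98.5% of S. cerevisiae probe sets above it on both. The pair differed by a median absolute log2 difference of 0.15, against 0.06 to 0.09 within pairs of replicates, and 2419 probe sets (44%) lay outside their replicate range, 977 above 0 (17.8%) and 1442 below 0 (26.2%). For these small differences, an effect of MSS11 and a difference between the 2 cultures or arrays cannot be told apart.

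The targeted gene followed the labels. MSS11 had a signal of 11.45 with the plasmid copy and 8.49 in the wild type, a difference of 2.96 or 7.77-fold. FLO8 itself stood at 9.53 with MSS11 overexpression and 9.92 in the wild type. URA3, the plasmid marker, was at 14.67 with MSS11 overexpression and differed by -0.33 from the strain with the empty plasmid. Of the deleted markers, LYS2 was below background on both arrays, at 4.21 and 3.70, but LEU2 gave 7.40 with MSS11 overexpression and 7.06 in the wild type, and HIS3 gave 12.97 and 13.23. Whether the LEU2 and HIS3 probes lie within the deleted sequence was not tested. MET17, which BY4742 retains, was at 14.40 and 14.24, MSS11 overexpression given before the wild type.

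The mating-type genes went in part against the MATα label and stand here before the other results. Genes that mark α cells were high on both arrays: MF(ALPHA)1, an α-factor gene, had 14.56 with MSS11 overexpression and 14.48 in the wild type, and STE3, the a-factor receptor, had 12.91 and 12.80 in the same order. Genes that mark a cells gave signal as well. STE2, the α-factor receptor of a cells, had 10.71 with MSS11 overexpression and 12.14 in the wild type, whereas the 10 Σ1278b arrays lay between 7.40 and 8.55. The Σ1278b arrays had the α genes high, with 14.55 to 14.71 for MF(ALPHA)1 and 11.76 to 12.13 for STE3, so that their values go against the MATa of the strain table and with their MATα labels. Of the 8 listed a-specific genes, AFB1 encodes a protein that α cells secrete and stood between 13.28 and 13.56 on all arrays; the other 7 (MFA1, MFA2, STE2, STE6, BAR1, AGA2 and ASG7) were all above the highest Σ1278b array in the S288c wild type, by 0.42 to 3.59. Over all probe sets, the S288c wild type lay above every Σ1278b array in 25.8% and the MSS11 array in 20.2%. On the MSS11 array they were all lower than in the wild type, by 0.85 to 1.61, and all but STE6 still exceeded every Σ1278b array. In bulk RNA, fewer cells expressing a gene and less of its RNA per cell cannot be told apart, and whether either culture held cells of another mating type was not tested.

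**Figure D1:**
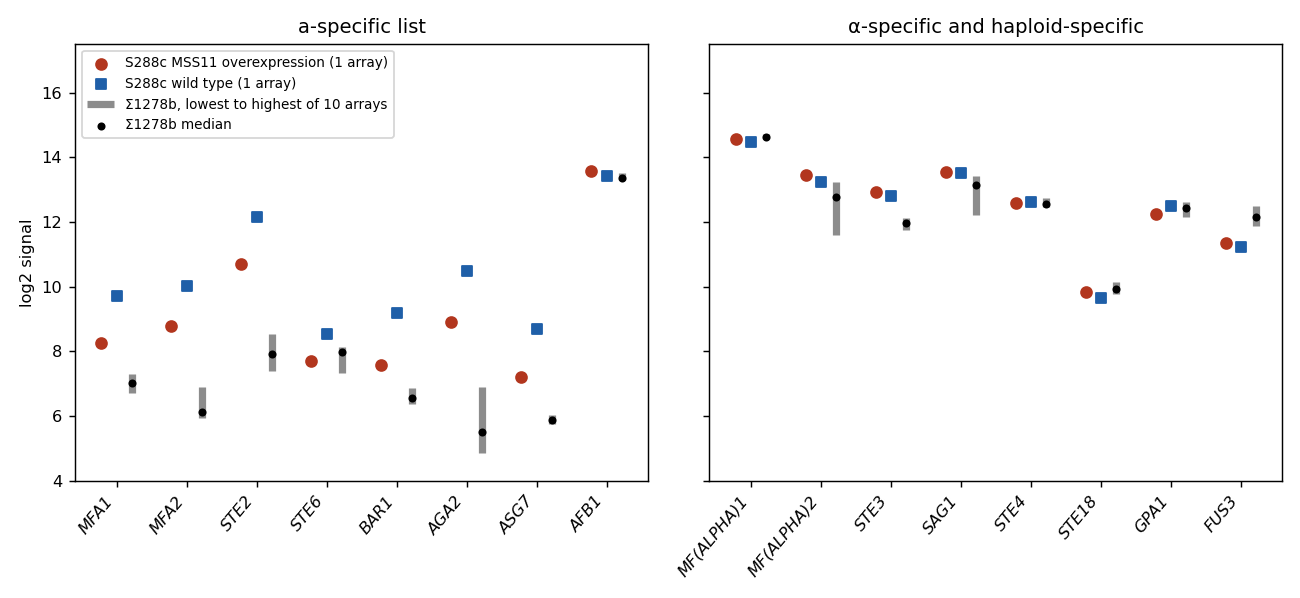
Log2 signal (y axis) of mating-type genes on the S288c MSS11 overexpression array (red circles), the S288c wild-type array (blue squares) and the 10 Σ1278b arrays (grey bar from lowest to highest, dot at the median). The left panel holds the a-specific list, in which all genes but AFB1 were highest in the S288c wild type, and the right panel the α-specific and haploid-specific genes, which differed by at most 0.25 between the S288c arrays.

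In all, 92 probe sets (1.67%) were at least 2-fold different, 68 higher (1.24%) and 24 lower (0.437%) with MSS11 overexpression. The increases were also the larger differences: 25 probe sets were at least 4-fold higher and 11 at least 8-fold higher, whereas no decrease reached 4-fold. The median difference was 1.59 among the higher and -1.16 among the lower probe sets. All but 1 of the 92 exceeded their replicate range, a count that the 2-fold threshold nearly fixes, as the median replicate range was 0.17. The exception was PIR3, a wall protein gene, with a difference of 1.14 against a replicate range of 1.55. Just inside the threshold lay MET14 (13.73 with MSS11 overexpression and 12.72 in the wild type) among the increases and ATR1 (10.87 and 11.87) among the decreases. Just outside it lay GRX8 (11.54 and 10.54) and BAP2 (12.34 and 13.34). Counted per gene, 67 of 5449 were higher (1.23%) and 24 lower (0.44%), the shares against which the lists below are to be read. By sign alone, 2430 of the 5449 genes lay above 0 and 3019 below it. At a 1.5-fold threshold decreases were the more numerous, 179 against 151. Without the a-specific and pheromone-induced lists the counts were 66 higher and 17 lower, an alternative added after the data were seen.

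**Figure D2:**
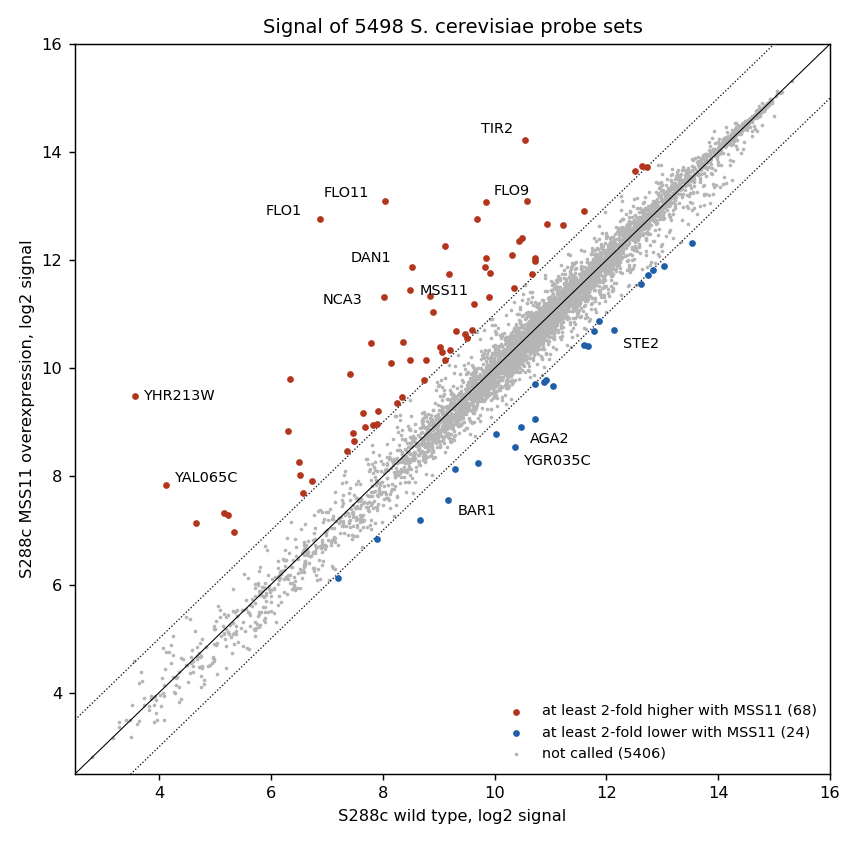
Log2 signal of each of the 5498 S. cerevisiae probe sets with MSS11 overexpression (y axis) and in the wild type (x axis) in S288c. Red points are the 68 probe sets at least 2-fold higher with MSS11 overexpression, blue points the 24 at least 2-fold lower, the solid line marks equal signal and the dotted lines 2-fold; FLO1, FLO11 and YHR213W lie farthest from the line.

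FLO1 and FLO11 had the largest differences among probe sets above background on both arrays. YHR213W, a FLO1-like fragment below background in the wild type, is described below. FLO1 had a signal of 12.77 with MSS11 overexpression and 6.88 in the wild type, a 59.3-fold difference, against a replicate range of 0.30 on the log2 scale. FLO11 had 13.10 with MSS11 overexpression and 8.03 in the wild type, 33.4-fold apart. FLO9 had 13.08 and 9.85 in that order, but its probe set carries a suffix for probes shared with relatives, so that its own transcript and those of FLO1 or FLO5 cannot be told apart. FLO10 differed least, with 9.21 with MSS11 overexpression and 7.92 in the wild type. The study's qPCR, with probes designed to separate FLO1, FLO5 and FLO9, did not show the regulation of FLO5 and FLO9 seen on its arrays. The probe sets of all 4 measured flocculins were higher, with a median difference of 4.15 against -0.03 over all genes. FLO5 has no probe set of its own here. The study had chosen this list in view of these samples, as it had the TIR and DAN list.

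Open reading frames that resemble parts of flocculin genes, or lie beside them, were likewise higher. YHR213W, a fragment similar to the start of FLO1, had 9.48 with MSS11 overexpression and 3.58 in the wild type, where it was below background. Against the lowest signal above background on the wild-type array, which is how every bound is given, it was at least 26.3-fold higher. Its neighbour YHR213W-A had 9.81 and 6.33 in the same order. YAL065C, another FLO1-like fragment, was at least 8.42-fold higher, with 7.84 on the MSS11 array and 4.12 on the wild-type array. YAR064W, next to FLO1 on chromosome I, was at least 5.16-fold higher, although its probe set is shared with relatives. YMR317W had 7.32 with MSS11 overexpression and 5.17 in the wild type. Of the 6 measured members of this list, 5 were called higher, and YAL064W-B, at 6.45 and 6.23, was not. The study lists YAL064W-B as up-regulated in both strains, at the same value as FLO9, whereas the value here comes from another probe set. It also gives YHR213W the same value as YAR062W. Cross-hybridization between flocculin genes and these fragments was not tested.

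The TIR and DAN mannoprotein genes formed the next group. TIR2 had 14.22 with MSS11 overexpression and 10.54 in the wild type, a 12.8-fold difference. DAN1 had 11.87 and 8.53, TIR3 had 12.27 and 9.11, TIR1 had 12.75 and 9.68, and TIR4 had 10.49 and 8.36, the MSS11 array first in each case. These 5 genes were the ones called among 7 measured, and the list had a median difference of 3.07 against at most 0.17 in any pair of replicates. The remaining members were TIP1 at 14.46 with MSS11 overexpression and 14.13 in the wild type, and DAN4 at 9.49 and 9.29. TIR4 and TIR2 are adjacent genes on chromosome XV, and DAN2 and DAN3 were not analysed here. None of 13 measured seripauperin (PAU) genes, small relatives of the TIR and DAN proteins, was called, and their differences ran between -0.42 and 0.52 with a median of 0.13.

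Other wall genes gave isolated calls. NCA3, a SUN family gene also tied to expression of mitochondrial ATP synthase subunits, had 11.32 with MSS11 overexpression and 8.02 in the wild type, 9.82-fold apart. Its relatives SIM1, SUN4 and UTH1 differed by between -0.16 and 0.06. Among 38 other wall proteins and remodelling enzymes 4 were called, all higher. HPF1, a large mannoprotein, had 12.09 with MSS11 overexpression and 10.32 in the wild type. ECM34 had 8.02 and 6.53 in the same order. PIR3 differed by 1.14 and CWP1, a mannoprotein anchored in the wall, by 1.12. The median of this list was 0.05, and abundant structural genes such as CCW12 (-0.03), CWP2 (0.01) and GAS1 (0.02) hardly differed. MNN4, which promotes the addition of mannosylphosphate to wall mannan, had 11.31 and 9.91, MSS11 overexpression before wild type, and was the only member called among 14 mannan outer chain genes.

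Genes for daughter cell separation, which loosen the septum after division, were all slightly lower. Their 9 differences ran between -0.39 for DSE1 and -0.01 for CBK1, with a median of -0.20 and a largest median of 0.11 in replicate pairs. None was called, and 6 of the 9 lay outside their replicate range, against 26.2% of all probe sets below 0 and outside it.

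**Figure D3:**
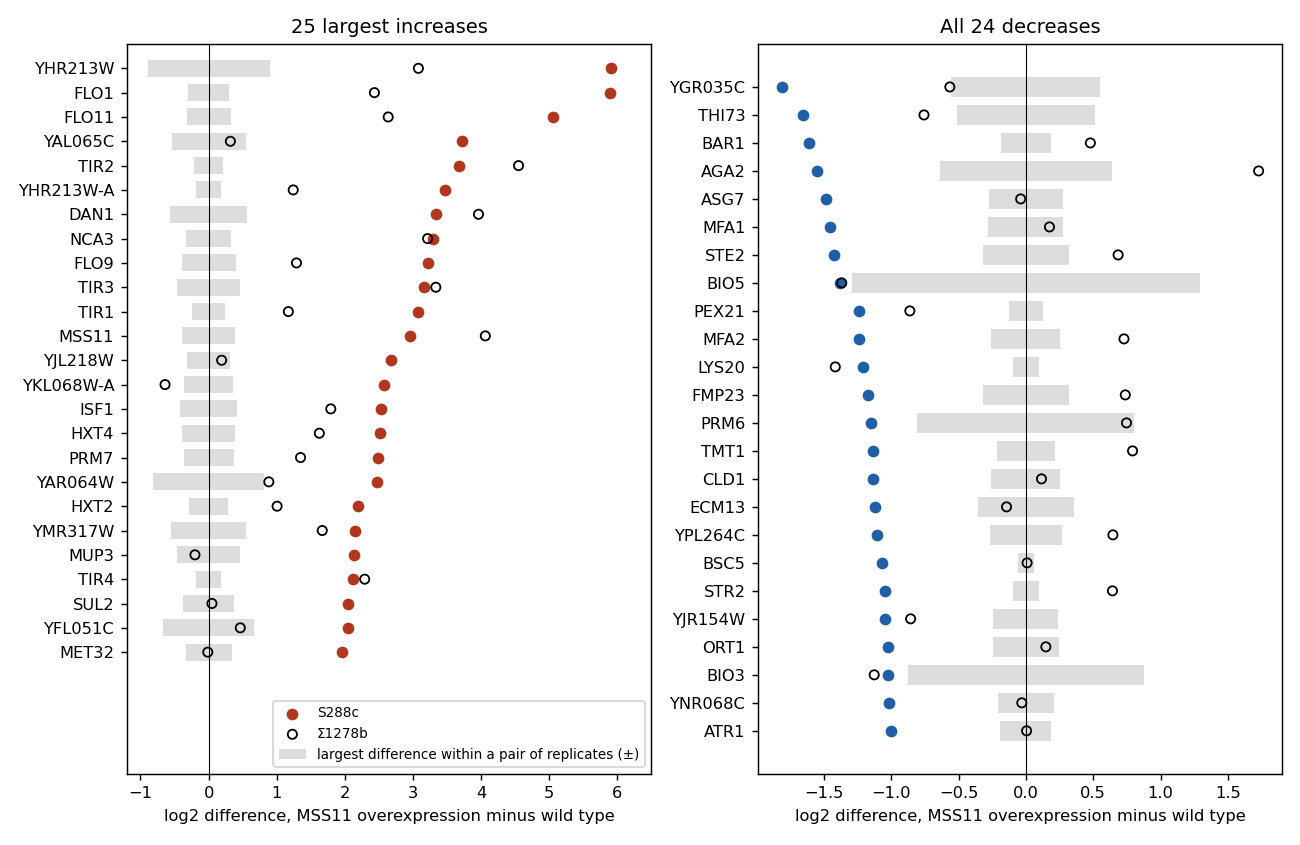
Log2 difference, MSS11 overexpression minus wild type (x axis), of the 25 genes with the largest increases (left, red) and all 24 genes called lower (right, blue) in S288c, with the difference in Σ1278b as open circles. Grey bars show plus and minus the largest difference within a pair of Σ1278b replicates, which all S288c points shown exceed; AGA2 was called in opposite directions in the 2 strains.

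Few regulators of filamentous growth were called. Besides MSS11 itself, MGA1, a heat shock factor-like regulator of pseudohyphal growth, was called among 22 genes, at 8.66 with MSS11 overexpression and 7.49 in the wild type. Genes below the threshold included CMR3 at 0.85, MIT1 at 0.79, YAP6 at 0.77 and PHD1 at 0.74, each outside its replicate range. Of the 22 genes, 12 lay above 0 and 7 below 0 outside that range, against 17.8% and 26.2% of all probe sets. Those below 0 included HMS2 (-0.44) and FLO8 (-0.39). STE12 (-0.10) and TEC1 (-0.12), the transcription factors at the end of the filamentation MAP kinase cascade, were close to 0. The cascade itself gave no call among 18 genes, with a median of -0.10. Its lowest member was SST2, a regulator that turns off pheromone signalling, at -0.53.

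Mating genes made up much of the decreases. BAR1, the protease that degrades α-factor, had 7.56 with MSS11 overexpression and 9.17 in the wild type. AGA2, the binding subunit of a-agglutinin, had 8.92 and 10.47, and MFA1, an a-factor gene, had 8.24 and 9.70, with MSS11 overexpression named first. Of the 24 lower genes, 6 belonged to the a-specific list described above and 1, PRM6, to the pheromone-induced list. That list, genes switched on by mating pheromone, had a median of -0.49 over 20 genes. Of these, 16 lay below 0, 12 of them outside their replicate range, against 26.2% of all probe sets. FUS1, needed for cell fusion, had 11.57 with MSS11 overexpression and 12.18 in the wild type. FIG2, a wall adhesin gene used in mating, had 10.70 with MSS11 overexpression and 11.37 in the wild type, and FIG1, a membrane protein gene of mating cells, had 7.36 and 7.75. KAR5, PRM1 and PRM5 differed by -0.79, -0.85 and -0.79. PRM7 stood apart from its list: 11.33 with MSS11 overexpression and 8.85 in the wild type on its brighter probe set, a difference of 2.48, and 9.90 and 7.42 on the other. The 4 α-specific genes, MF(ALPHA)1, MF(ALPHA)2, STE3 and SAG1, differed by 0.04 to 0.20.

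Among glucose carriers, HXT4, HXT2 and HXT7 were called. HXT4 had 13.09 with MSS11 overexpression and 10.58 in the wild type, and HXT2, a high-affinity carrier, had 12.04 and 9.86. HXT7, whose probe set is shared with relatives, differed by 1.31. The low-affinity carriers HXT1 and HXT3 had 13.71 and 14.19 with MSS11 overexpression and 13.69 and 13.83 in the wild type, HXT3 lying outside its replicate range of 0.13. HXT5, a carrier of slow-growing cells, had 8.32 with MSS11 overexpression and 8.33 in the wild type. With 15 carriers measured, 3 were called higher and none lower, and the list median was 0.25 against at most 0.16 in replicate pairs. MTH1, a repressor of HXT genes when glucose is low, differed by 1.24, and HXK1, a hexokinase gene repressed by glucose, by 1.15. They were the called members of 14 glucose sensing and repression genes. MDH2, the cytosolic malate dehydrogenase of gluconeogenesis, had 11.77 and 9.93, MSS11 overexpression before wild type, yet FBP1 (-0.45), PCK1 (-0.44), ICL1 (-0.27) and MLS1 (-0.35) of the same list of 17 lay below 0 and inside their replicate ranges.

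Sulfur genes were the largest metabolic group among the increases. SUL2, a sulfate permease, had 11.88 with MSS11 overexpression and 9.83 in the wild type, and the related SUL1 had 10.15 and 8.78. MET32, a zinc finger activator of the pathway, had 10.10 with MSS11 overexpression and 8.15 in the wild type. MET2, the homoserine acetyltransferase, differed by 1.72, MET1, needed for the sirohaem of sulfite reductase, by 1.32, and MET14, the adenylylsulfate kinase, by 1.01. In contrast STR2, which makes cystathionine from cysteine, had 11.56 with MSS11 overexpression and 12.61 in the wild type. Over 29 sulfate assimilation and methionine genes, 6 were called higher and 1 lower, with a median of 0.29, whereas the abundant enzymes MET6 (0.02) and MET17 (0.16) differed little. Uptake and use of organic sulfur compounds gave 4 increases among 14 genes and a median of 0.68: the methionine permease genes MUP3 (11.03 with MSS11 overexpression and 8.90 in the wild type) and MUP1 (12.64 and 11.23), OPT1, a glutathione and oligopeptide transporter (10.16 and 8.48), and MHT1, a methyltransferase that uses S-methylmethionine (10.15 and 9.12). Parts of both sulfur lists were also chosen by the study on these samples.

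Of 16 genes in the low-oxygen list, which holds induced genes and also regulators such as ROX1, 3 were called. ANB1, the hypoxic form of translation factor eIF5A, had 12.36 with MSS11 overexpression and 10.43 in the wild type. HEM13, an enzyme of haem synthesis, had 12.40 and 10.49, and CYC7, the minor cytochrome c, had 8.97 and 7.90, with the MSS11 array first. AAC3 reached 0.90. OLE1 (-0.07), ROX1 (0.00) and SUT1 (-0.11) lay near 0, and the list median was 0.15. HAP4, the limiting subunit of the activator of respiratory genes, had 10.39 with MSS11 overexpression and 9.03 in the wild type. The other HAP regulators listed, HAP1 (0.19), HAP2 (-0.18), HAP3 (0.11) and HAP5 (-0.11), were not called. None of 38 respiratory chain and ATP synthase genes was called, though 35 lay above 0, with a median of 0.21 against at most 0.06 in replicate pairs and extremes of -0.40 for NDE2 and 0.40 for SDH2. ISF1, linked to mitochondrial function and in none of the lists, had 8.84 with MSS11 overexpression and 6.31 in the wild type.

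Few stress genes were called. Of 26 general stress and storage carbohydrate genes, 25 lay above 0, with a median of 0.35. Replicate pairs alone gave medians of up to 0.33 for this list. Above 0 and outside their own replicate range lay 10 of the 26 genes, against 17.8% of all probe sets. GAC1 and GSY1, which act in glycogen synthesis, were called, at 1.20 and 1.16. Among 23 chaperone genes none was called and 21 lay above 0, 14 of these outside their replicate range. Their median was 0.22, against at most 0.17 in replicate pairs, and HSP26 (0.92), HSP30 (0.81) and HSP82 (0.64) were the highest. CLN3, a G1 cyclin gene that sets the size at Start, had 10.55 with MSS11 overexpression and 9.51 in the wild type and was the called member of 13 cyclins.

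Biosynthetic genes tended to be lower by less than 2-fold. LYS20, a homocitrate synthase gene of lysine synthesis, had 12.33 with MSS11 overexpression and 13.54 in the wild type. It was the called member of 9 lysine genes, of which LYS2 is deleted in this strain, and the list median was -0.57. LYS14, the pathway activator, differed by -0.70, LYS5 by -0.67, LYS1 by -0.62, LYS4 by -0.57, LYS21 by -0.33, LYS12 by -0.30 and LYS9 by -0.03. Branched-chain synthesis genes had a median of -0.36, with 11 of 12 below 0, the exception being LEU2. ILV2, OAC1 and LEU9 differed by -0.69, -0.68 and -0.68. Of 31 other amino acid genes, 25 lay below 0, with a median of -0.28, TRP3 lowest at -0.70 and SER33, a first enzyme of serine synthesis, highest at 0.93. Medians of these 3 lists were at most 0.09 in any replicate pair.

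Biotin, thiamine and iron genes mostly lay below 0. BIO5, a transporter of biotin precursors, had 9.68 with MSS11 overexpression and 11.05 in the wild type, and BIO3, a biotin synthesis enzyme, had 11.82 and 12.84. VHT1, the biotin permease, differed by -0.80, BIO4 by -0.69 and BIO2 by -0.24. These 5 biotin genes had a median of -0.80, but replicate pairs reached a median of 0.60 and BIO5 a replicate range of 1.29, the widest among genes called lower. THI73, a carrier of the plasma membrane whose substrate is not established, had 9.07 with MSS11 overexpression and 10.72 in the wild type, and 12 of 13 thiamine and pyridoxine genes lay below 0 without a call, with a median of -0.39. Of 19 iron uptake genes 18 lay below 0, with a median of -0.34 and none called. FET3, the multicopper oxidase of high-affinity uptake, was lowest at -0.92. The 8 zinc genes did not share this, with a median of -0.05, ZPS1 highest at 0.51 and ZAP1, the zinc-responsive activator, lowest at -0.39. PEX21, a peroxin, had 10.42 with MSS11 overexpression and 11.66 in the wild type. YGR035C, a gene of unknown function, had the largest decrease, with 8.55 and 10.36 in that order.

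Protein synthesis genes stayed close to 0. The 122 ribosomal protein genes had a median of 0.02 and a range of -0.55 to 0.36, and 32 ribosome biogenesis and RNA polymerase I genes a median of 0.00. None of either list was called. The 22 glycolysis, fermentation and glycerol genes had a median of 0.06 and 23 ergosterol genes one of 0.02, again without a call. Single genes reached farther, such as ERG28 (0.78) and URA1 (0.79) above 0. All 5 galactose genes lay below 0, GAL7 at -0.79, GAL10 at -0.53, GAL1 and GAL3 at -0.30 each and GAL80 at -0.18. NCE103, carbonic anhydrase, had 12.96 with MSS11 overexpression and 13.47 in the wild type, and the aquaporin gene AQY2 had 9.05 and 9.12. Among the other small lists, YPR196W (1.52), a putative maltose activator, DSF1 (1.75), a hexitol dehydrogenase gene measured by a shared probe set, and SPS4 (1.23), a sporulation gene, were the called members. Galactose, zinc, phosphate, nitrogen catabolite repression, aquaporin and COS genes gave no call.

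**Figure D4:**
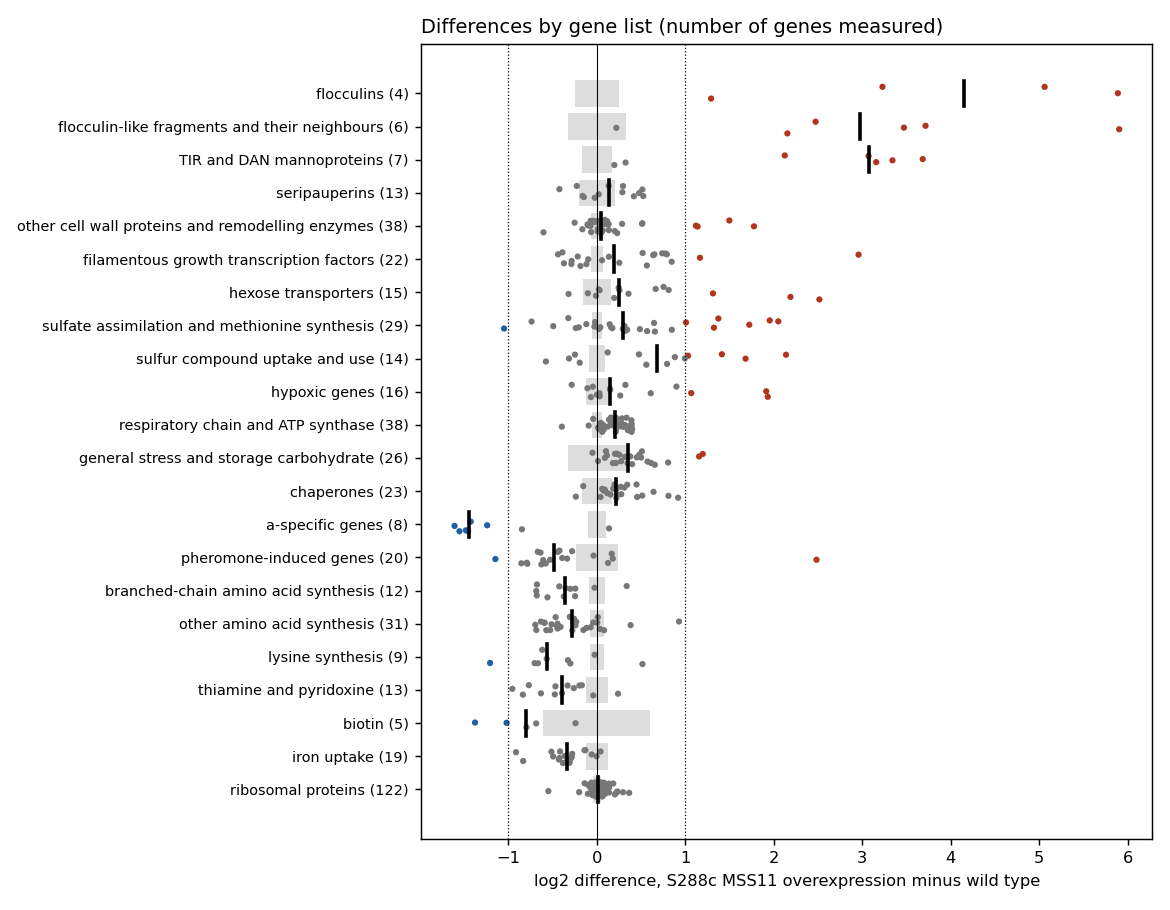
Log2 difference, S288c MSS11 overexpression minus wild type (x axis), of each measured gene in 22 lists, with red points at least 2-fold higher, blue points at least 2-fold lower and grey points not called; vertical jitter has no meaning. Black ticks are list medians, and grey bars span plus and minus the largest median of the list in a pair of Σ1278b replicates. Flocculins, their fragments and the TIR and DAN genes lie farthest to the right and the a-specific genes farthest to the left.

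The listed groups held 61 of the 91 called genes, and 18 increases and 12 decreases fell in no list. YJL218W, a putative acetyltransferase gene, had 10.46 with MSS11 overexpression and 7.78 in the wild type, and the uncharacterized YKL068W-A had 11.75 and 9.18. YFL051C, which encodes a protein similar to flocculins, had 7.29 with MSS11 overexpression and 5.24 in the wild type. Further increases in no list, named after their values were seen, were TMA10, a ribosome-associated protein gene (11.19 with MSS11 overexpression and 9.63 in the wild type), RAD59, which acts in recombinational repair (10.70 and 9.31), and RGI1, needed for respiratory growth (11.98 and 10.72). Smaller ones included RCK1, a protein kinase gene (8.95 and 7.82), IMD2, an IMP dehydrogenase gene measured by a shared probe set (10.72 and 9.60), and EMI2 (11.74 and 10.68), with the MSS11 array first. Decreases in no list included TMT1, trans-aconitate methyltransferase (11.89 with MSS11 overexpression and 13.03 in the wild type), CLD1, a cardiolipin deacylase (9.76 and 10.89), and ORT1, the mitochondrial ornithine carrier (11.73 and 12.75). FMP23 and ECM13, of unknown function, differed by -1.17 and -1.12.

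The calls were unevenly placed along chromosomes. Of the 67 genes called higher, 22 (32.8%) were among the 15 outermost protein-coding genes of a chromosome end, against 378 of 5449 measured genes (6.94%) and 3 of the 24 genes called lower (12.5%). FLO1, FLO9, FLO10, DAN1, YHR213W, HPF1, HXK1 and SUL1 were among them, several of them members of families with copies at other chromosome ends. Neighbouring genes were both called in 4 cases, namely FLO1 with YAR064W, YHR213W with YHR213W-A, TIR4 with TIR2, and YNR068C with BSC5, the last pair lower (-1.01 and -1.07).

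Many of the increases also appeared in Σ1278b. There MSS11 overexpression gave 67 calls (1.22%), 52 higher (0.946%) and 15 lower (0.273%), and 31 probe sets were higher in both strains, 45.6% of the S288c increases and 59.6% of those in Σ1278b. TIR2 differed by 3.68 in S288c and 4.55 in Σ1278b, DAN1 by 3.34 and 3.96, NCA3 by 3.30 and 3.22, TIR3 by 3.16 and 3.34, and TIR4 by 2.12 and 2.29. TIR1, of the same list as TIR2, differed by 3.07 in S288c and 1.17 in Σ1278b. FLO11 differed by 5.06 in S288c and 2.64 in Σ1278b, and the shared FLO9 probe set by 3.23 and 1.29. FLO1, at 6.40 in Σ1278b with MSS11 overexpression and 3.96 in the Σ1278b wild type, was below that array's background of 4.88 in the wild type, so that it was at least 2.80-fold higher there, and no order between the strains can be given. For FLO11 the wild types already stood apart, at 8.03 in S288c and 11.63 in Σ1278b. Signals of one probe set may also differ between strains because the probes were designed on a single reference sequence, which was not tested.

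The sulfur genes did not share this pattern. SUL2 differed by 2.05 in S288c and 0.05 in Σ1278b, MET32 by 1.95 and -0.01, MET2 by 1.72 and -0.22, and MUP3 by 2.14 and -0.20. None of the 43 genes in both sulfur lists was called in Σ1278b, where their medians were 0.05 and 0.03. The S288c wild-type array lay below all 10 Σ1278b arrays for 9 of the 10 sulfur genes called higher, with SUL1 the exception. Over all probe sets the wild type lay below every Σ1278b array in 35.9%. For all 68 increases, the wild-type array lay below every Σ1278b array in 36 cases, within their range in 24 and above it in 8. The shares over all probe sets were 35.9% below and 25.8% above. A call as higher itself favours a low wild-type signal. This count and that of the sulfur genes are therefore no more than descriptions. The difference between strains was not tested, since each had 1 array a group.

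The decreases were shared less. Of the 24, 10 were below 0 in Σ1278b and 3 were called lower there: LYS20 (-1.21 in S288c and -1.42 in Σ1278b), BIO5 (-1.38 and -1.37) and BIO3 (-1.02 and -1.13), which are 12.5% of the S288c decreases and 20% of those in Σ1278b. AGA2 was called in opposite directions, at -1.55 in S288c and 1.73 in Σ1278b. For the 24 decreases, the wild-type array lay above every Σ1278b array in 21 cases and the MSS11 array in 11. Over all probe sets these shares were 25.8% and 20.2%, but a call as lower itself favours a high wild-type signal. The whole a-specific list had a median of -1.44 in S288c and 0.35 in Σ1278b, and the pheromone-induced list -0.49 and 0.36. Conversely, Σ1278b had calls that S288c lacked, such as HSP12 (0.22 in S288c and 2.10 in Σ1278b), PDR11 (0.61 and 1.82), YGP1 (0.11 and 1.69) and HMS1 (0.52 and 1.34). Over all probe sets the differences of both strains correlated with an r of 0.35 across probe sets, which are not independent replicates and which share the array platform.

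**Figure D5:**
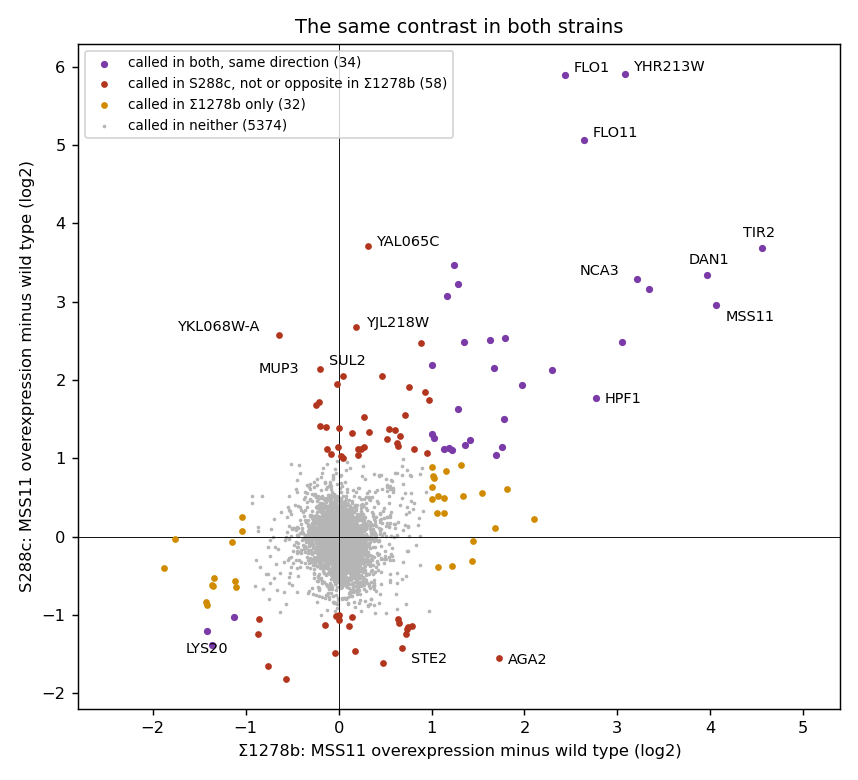
Log2 difference of each S. cerevisiae probe set, MSS11 overexpression minus wild type, in S288c (y axis) and in Σ1278b (x axis), with 1 array in each group. Purple points were called in both strains in the same direction (34), red in S288c but not or oppositely in Σ1278b (58) and orange in Σ1278b only (32); FLO1, FLO11 and YHR213W lie highest, while SUL2 and MUP3 lie near 0 on the x axis.

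Other Σ1278b arrays gave values for the same genes, set against 1 shared Σ1278b wild-type array. With FLO8 overexpression, where 26 probe sets were called higher (0.473%), 14 of the 68 S288c increases were among them, including FLO11 (2.56), TIR3 (1.87), TIR2 (1.55), ANB1 (1.54) and NCA3 (1.51). The shared FLO9 probe set (-0.05) and FLO10 (-0.10) were near 0 there. On the array labelled mss11 deleted, MSS11 still gave 6.87, above that array's background of 4.82, and 8.22 in the wild type. There, where 13 probe sets were called lower (0.236%), 5 of the 68 were among them: FLO11 (-2.90), TIR3 (-1.37), MSS11 itself (-1.35), ECM34 (-1.25) and CIN5 (-1.05), a basic leucine zipper factor named after its values were seen. TIR2 differed by -0.04 on that array, against a wild-type signal of 8.81. FLO1 was below background on the FLO8 overexpression array, the array labelled mss11 deleted and their wild type, so no difference is given.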

How the data were processed

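Each of 12 RNA samples was measured on its own Affymetrix array. Signal intensity was deposited by the authors as RMA summaries on a linear scale, 1 value per probe set, with no RMA version in the sources used here. Their log2 was used throughout, where the planned analysis had foreseen values already in log2.

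Groups came from the sample labels. Probe sets were named through the platform annotation and the RefSeq R64 gene table by gene identifier (5498 S. cerevisiae, 1746 S. pombe, 1 with several genes, 3683 without a gene; 12 symbols were updated). For the 47 genes with several probe sets, lists used the brightest by mean signal. In all, 128 probe sets carry a suffix for shared probes. Single arrays were compared by difference without a test, in Python 3.11.15 with numpy 2.4.6, pandas 2.3.3 and matplotlib 3.10.9, after the calling procedure had been tested on simulated data. How many arrays a group had limits the precision of every value here.

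The 48 gene lists, the comparisons and the genes to name were chosen with earlier results of these data known. Genes to name were drawn from those the study discusses, markers, the 25 largest increases and 25 largest decreases among called genes, up to 6 members of each list by size of difference and members of lists of up to 9 genes, not all of which are printed. List members given as contrast (such as CCW12, STE12, HXT1, MET6 and OLE1), MET14, and HSP12, YGP1 and FUS1 lie outside this rule and were chosen after their values were seen. Alternatives changed the threshold, background, scaling, pseudocount, probe set choice and replicates. Promoter sequences were not used here.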

Additional observations from a re-analysis of the deposited data

Results flagged for a closer look

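AGA2 moved in opposite directions in the 2 strains under the same contrast. In S288c it had 8.92 with MSS11 overexpression and 10.47 in the wild type, a difference of -1.55. In Σ1278b it had 6.90 with MSS11 overexpression and 5.18 in the wild type, a difference of 1.73. Background on that Σ1278b wild-type array was 4.88. The difference between strains was not tested, since each group had 1 array. The S288c difference belongs to the a-specific genes, which were high in the S288c wild type as a group.

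Probe sets without a gene in the annotation were outside the comparisons. Of 548 such probe sets above background on either S288c array, 6 were at least 2-fold higher and 4 at least 2-fold lower with MSS11 overexpression, and 3 of the 10 carry control identifiers. No S. pombe probe set was called, a count of 0 of 1746.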

How the results depend on the processing

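At a 1.5-fold threshold 330 probe sets differed, 151 higher and 179 lower, with 78 called in both strains in the same direction, so the excess of increases over decreases is limited to the larger differences. At 4-fold these counts were 25, 25, 0 and 10. Under the other alternatives the counts stayed within 1.5 times the 92, 68, 24 and 34 reported: another background percentile, no background filter, both arrays above background, median centring, quantile normalization within the S288c pair, 32 added on the linear scale, a floor at background, 1 probe set per gene, no shared-probe sets, calls outside the replicate range, and no mating genes. The share of higher calls moved by less than 10 percentage points under both rescalings, which gave 70 higher and 22 lower. Leaving out each Σ1278b replicate in turn, 91 to 92 called probe sets exceeded the replicate range, and 2560 to 2783 of all probe sets, against 2419 with all replicates, since fewer pairs narrow that range. Of 45 lists with at least 4 measured genes, 31 had a median beyond every replicate pair, 15 above 0 and 16 below 0, and 30 to 34 under the alternatives. No called gene among those to be named changed sign, and no list median beyond every replicate pair did. Sign changes of other genes and list medians were not counted. Adding 32 reduced differences of dim genes by up to 1.82.

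No paired analysis was possible because the S288c arrays share a single replicate number, with 1 array in each group. The promoter motif description was not run, because no sequence table was used here. Further S288c cultures of the study were not analysed here, so the spread of S288c arrays was not measured.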
